A study of Oryza sativa Japonica Group with 6 samples.

Results

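The genes described here encode the storage proteins and the seed allergens of the rice grain. They are the glutelins GLUA-1, GLUA-2, GLUA-3, GLUB-4, GLUB-5 and GLUD-1, one prolamin gene, and the allergens RA5, RA14 and RA17. They were chosen by name: every probe set of the Affymetrix rice genome array that the platform annotation gives to exactly 1 gene was kept where that gene carries one of these names as symbol or synonym. This gave 10 genes with 16 probe sets, out of 17905 genes and 57194 rice probe sets. A further 3 probe sets that list one of these genes together with other genes were left out.

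RNA from developing seeds of Oryza sativa Japonica Group was measured on 6 arrays, 1 for each sample. The 3 additional NH4Cl samples came from plants whose soil surface was sprayed at heading with ammonium chloride, 400 mg to a container, and their source label gives 15 days after flowering. The 3 control samples came from plants without that dose, for which the labels used here give no seed age. Both groups shared a first fertilizer dose at planting and a second one 37 days after germination. The labels call the samples biological replicates without tying them to the 6 plants that gave the seeds. The p-values therefore cover only the spread among these samples, taken in part over all rice probe sets. That spread may be partly technical. The extract protocol speaks of pooled seedlings where the tissue label says developing seed. The study asked how the additional fertilizer changed gene expression in the seed.

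Glutelins are the main storage proteins of the rice grain. The starchy endosperm makes them as precursors at the endoplasmic reticulum, where they are folded with the help of chaperones and disulfide isomerases, and they are then carried to protein storage vacuoles and cleaved there into an acidic and a basic subunit. Prolamins are alcohol-soluble storage proteins that stay inside the endoplasmic reticulum and form separate protein bodies. The allergens RA5, RA14 and RA17 belong to a family of small, cysteine-rich albumins related to inhibitors of alpha-amylase and trypsin. Nitrogen given around heading is used in rice growing to raise the protein content of the grain.

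The storage protein and allergen genes gave some of the highest signals of the seed in both groups, and none of them passed the test for additional NH4Cl against control. Prolamin (LOC4342688) had the highest value of all 57194 rice probe sets, at 13.51 on the deposited log2 scale with additional NH4Cl and 13.51 in control. RA14 (LOC4342723) came directly after it at 13.42 in both groups. Of the 16 probe sets, 4 were among the 10 with the highest mean, 8 among the top 25 and 11 among the top 100. For comparison, the median rice probe set stood at 5.72 and the 99th percentile at 10.01. A rank sets the signals of different probes side by side and is not an amount of RNA, because probes differ in how strongly they bind.

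**Figure D1:**
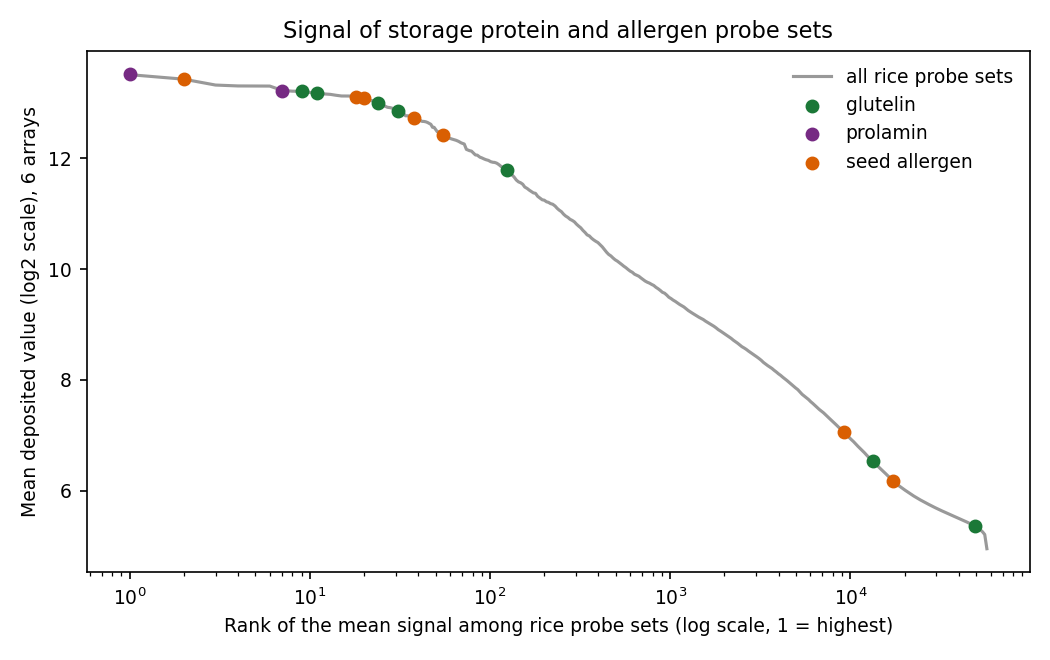
Mean deposited value (log2 scale, vertical axis) of rice probe sets against their rank on a log axis, with the 16 probe sets of the glutelins, prolamin and seed allergens as coloured points on the grey curve of all 57194. Prolamin and RA14 hold ranks 1 and 2, 11 points lie within the first 100 ranks, and 5 lie further down.

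Among the glutelins, GLUA-2 (LOC4348563) held rank 9 with its brighter probe set, at 13.21 in both groups. GLUB-5 (LOC4328968) held rank 11 at 13.17, GLUA-1 (LOC4327027) rank 24 at 13.00 and GLUA-3 (LOC4333164) rank 31 at 12.85. GLUD-1 (LOC4328877) was lower on the curve, with rank 124 and 11.79. GLUB-4 (LOC4328969) was measured by a single probe set at 5.36, rank 49266, below the median of all rice probe sets. Of the allergens, RA5 (LOC4342727) held rank 18 at 13.10 and RA17 (LOC4342722) rank 55 at 12.42. Each of these ranks was the same on all 6 arrays. All 100 probe sets of highest mean kept their rank on every array, as did 19.0% of all rice probe sets, so the fixed order was not particular to storage genes.

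Probe sets of the same gene differed widely in signal. GLUA-2 stood at 13.21 on one probe set and at 6.54 on the other. RA17 stood at 12.42 on one and at 7.06 on the other. RA14 had 3 bright probe sets at 13.42, 13.08 and 12.73 and a dim one at 6.18. The probe sets of prolamin lay close together at 13.51 and 13.22. These gaps are gaps between probes, and a dim probe set does not show that the gene's RNA was scarce. The dim value of GLUB-4 is to be read with the probe set that the annotation gives to GLUB-4 and GLUB-5 together with another gene, which stood at 12.94 and cannot be assigned to one of them. On that shared probe set the groups were apart, with additional NH4Cl higher by 7.29 millionths of a log2 unit (6.73 within-group SDs). Its adjusted p of 0.134 in the limma fit was lower than that of any of the 16, and quantile normalization left no difference. GLUB-4 and GLUB-5 are direct neighbours among protein-coding genes in the gene table of assembly ASM3414082v1, as are RA17 and RA14.

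**Figure D2:**
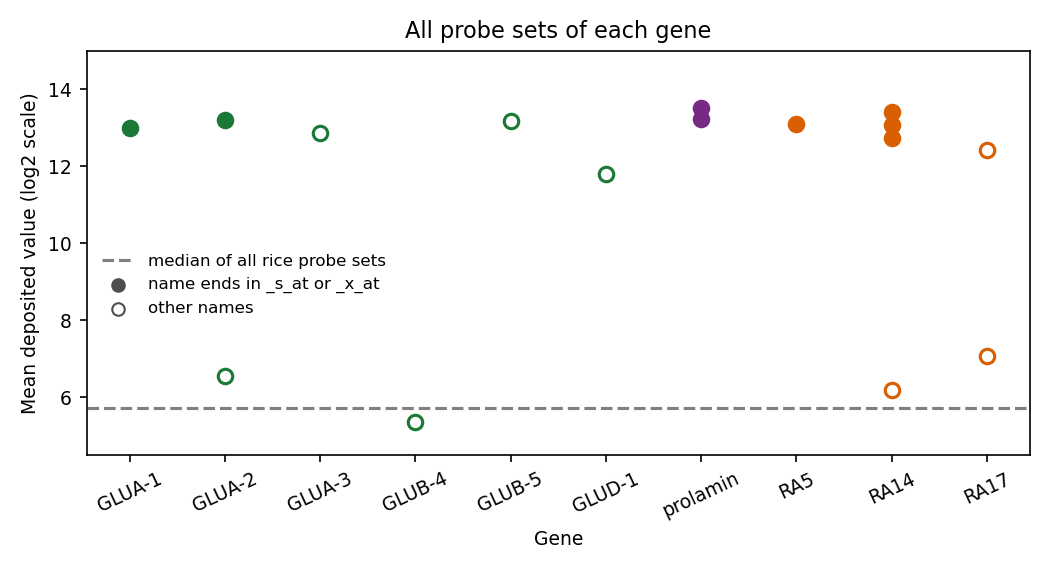
Mean deposited value (log2 scale) of each of the 16 probe sets, by gene, with the median of all rice probe sets as a dashed line. Filled points are probe sets whose names end in _s_at or _x_at, which can bind several transcripts. GLUA-2, RA14 and RA17 each have a bright and a dim probe set, and GLUB-4 has only a dim one, at 5.36.

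Of the 16 probe sets, 8 have names ending in _s_at or _x_at, Affymetrix's marks for probes that can hybridize with several transcripts. They include every probe set of prolamin, RA5 and GLUA-1, the 3 bright ones of RA14 and the bright one of GLUA-2. Their signal can therefore include related glutelin, prolamin or allergen RNAs. GLUB-5, GLUA-3, GLUD-1 and RA17 were bright on probe sets without that mark.

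The arrays of the deposited table are almost identical, and this sets the scale of every comparison here. Over the 6 arrays a rice probe set had a median SD of 2.25 millionths of a log2 unit, and that of the 16 probe sets was 1.12 millionths, from 0.113 for prolamin to 182 for RA17. Values of single arrays are therefore given as their distance from the probe set's own mean over the 6 arrays, in millionths of a log2 unit. No source used here states how the authors summarized and normalized the arrays, so such a distance is not a log2 fold change of RNA. The largest difference between the groups in any of the 16 probe sets was 0.000151 log2 units in size. The array of additional NH4Cl replicate 1 was the one farthest from the others for 21.1% of rice probe sets and that of additional NH4Cl replicate 3 for 21.2%, against 13.1% to 16.5% for the other arrays. In a bulk sample of seeds, fewer cells of a type and less RNA per cell cannot be told apart.

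Among the glutelins, GLUB-5, of the B subfamily, lay at 0.107, 0.347 and 0.167 millionths above its mean on the additional NH4Cl arrays, and at -0.233, -0.143 and -0.243 on the control arrays. Every additional NH4Cl array was above every control array. The difference was 0.413 millionths (SE 0.0788, n = 3 per group), or 4.28 within-group SDs, with an adjusted p of 0.587 in the limma fit across all rice probe sets.

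GLUA-1 lay at 0.252, 0.222 and 0.112 millionths with additional NH4Cl, and at -0.0183, -0.348 and -0.218 in control. The groups did not overlap, and the difference was 0.39 millionths (SE 0.105; 3.03 SDs; limma adjusted p of 0.632). The probe sets that list GLUA-1 together with another gene stood at 13.21 and 12.91, and on both the groups overlapped. Their differences were 0.0767 millionths (0.772 SDs) and 0.84 millionths (1.44 SDs). GLUA-3 varied on a wider scale, with 5.75, 14.1 and 4.84 millionths with additional NH4Cl against -1.39, -10.4 and -12.9 in control. Its groups did not overlap. GLUA-3 had the smallest p of the 16 probe sets, 0.0159 before adjustment and 0.31 after it in the same limma fit, for a difference of 16.5 millionths (SE 4.57; 2.94 SDs).

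The bright probe set of GLUA-2 read 0.0333, 0.123 and 0.0533 millionths with additional NH4Cl, against -0.117, -0.177 and 0.0833 in control. Control replicate 3 fell among the additional NH4Cl arrays, so the groups overlapped, and the difference of 0.14 millionths was 1.37 SDs. It was 0.217 without that array and 0.0867 without control replicate 2. GLUD-1 read 2.88, 2.36 and -1.94 millionths with additional NH4Cl, against -1.31, -2.27 and 0.275 in control. Here additional NH4Cl replicate 3 was down among the control arrays. The difference of 2.2 millionths was 3.71 without that array and 1.31 without additional NH4Cl replicate 1. GLUB-4, on its dim probe set, read 0.178, -0.483 and 0.0518 millionths with additional NH4Cl, against -0.0682, 0.0468 and 0.275 in control, and its difference of -0.169 millionths was -0.61 SDs. Additional NH4Cl replicate 2 was the lowest of its 6 arrays, and without that array the difference was 0.0303. By limma the adjusted p was 0.916 for GLUA-2, 0.742 for GLUD-1 and 0.932 for GLUB-4.

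By their brightest probe sets, 5 of the 6 glutelins had a higher mean with additional NH4Cl as deposited, with a median difference of 2.16 within-group SDs. Over all rice probe sets that median was 0.0101 SDs, and 50.4% had a higher mean; of the 100 probe sets of highest mean 54.0% did. The second GLUA-2 probe set, the dim one, read 0.916, 2.22 and -1.13 millionths with additional NH4Cl, against -0.247, -0.693 and -1.06 in control, with the lowest value in additional NH4Cl replicate 3 and overlapping groups. Its difference of 1.33 millionths was 2.23 without that array and 0.558 without additional NH4Cl replicate 2. After quantile normalization none of the 6 had any difference left, which follows from ranks that were the same on every array. After each array was centred on its median, all 6 were higher by 122 to 139 millionths. The centring itself gives most of this, since the medians of the additional NH4Cl arrays, 5.718449 to 5.718463, lay below those of control, 5.718525 to 5.718603.

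Prolamin, at the very top of the signal range, read 0.118, 0.118 and 0.0183 millionths with additional NH4Cl, against -0.152, -0.112 and 0.00833 in control. The groups did not overlap, by a margin of 0.01 millionths, 1 step of the table's last decimal, between additional NH4Cl replicate 3 and control replicate 3. The difference was 0.17 millionths (SE 0.0585; 2.37 SDs; limma adjusted p of 0.874). The second prolamin probe set read 1.19, 1.04 and -0.447 millionths with additional NH4Cl, against -0.927, -0.867 and 0.00333 in control. There the groups overlapped, with the same 2 arrays in the middle, and the difference was 1.19 millionths (SE 0.604; 1.61 SDs; limma adjusted p of 0.587).

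**Figure D3:**
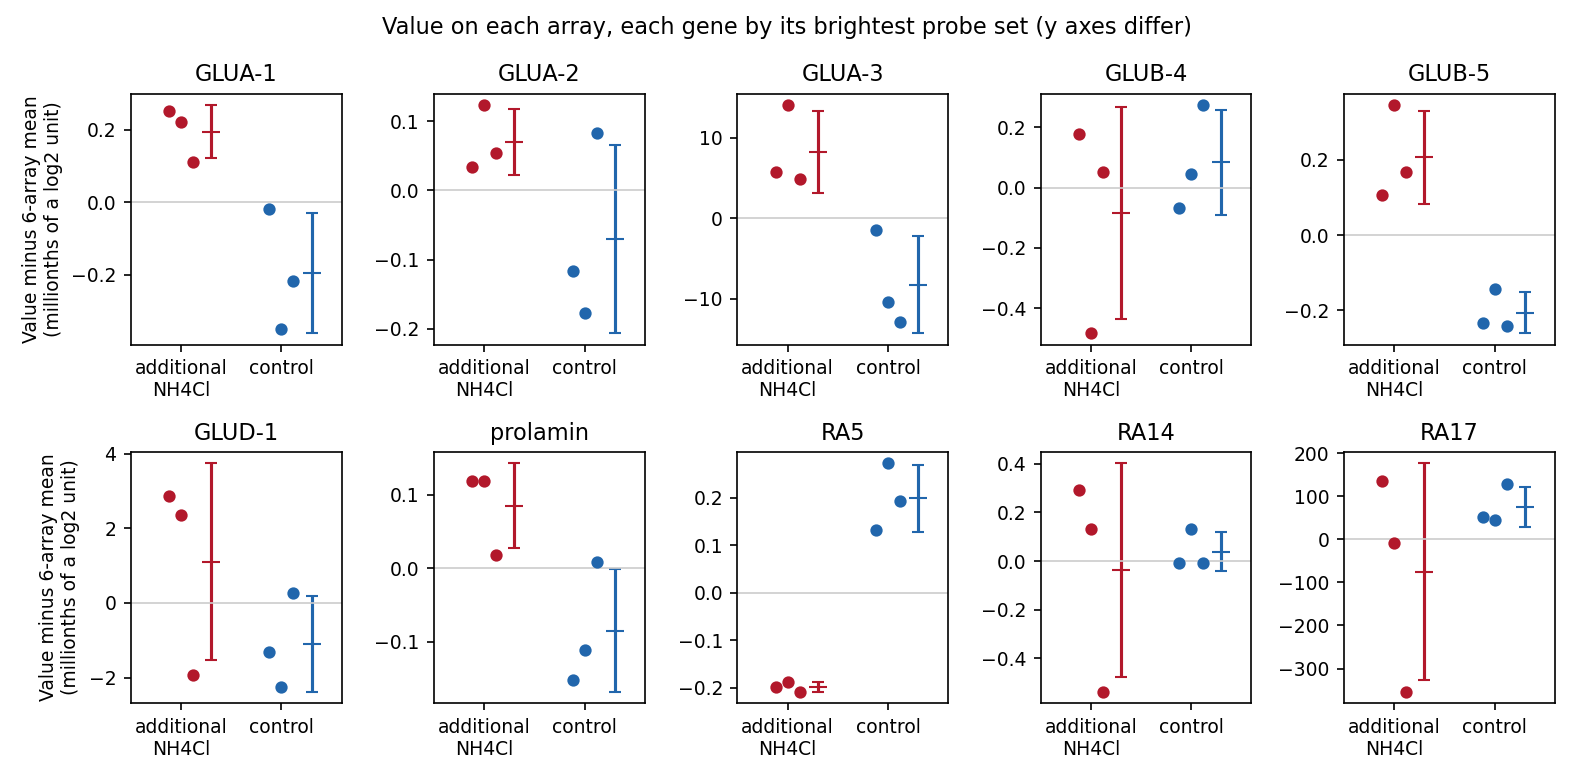
Value on each array minus the mean of the 6 arrays, in millionths of a log2 unit, for each of the 10 genes by its brightest probe set. Points are arrays and bars the mean ± SD (n = 3), additional NH4Cl in red and control in blue, and the vertical axes differ between genes. The groups are apart for GLUA-1, GLUA-3, GLUB-5, prolamin and RA5 and overlap for the other genes.

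The allergens had lower means with additional NH4Cl on their brightest probe sets. RA5 read -0.198, -0.188 and -0.208 millionths with additional NH4Cl, against 0.132, 0.272 and 0.192 in control. The additional NH4Cl arrays were very close together, with an SD of 0.01 millionths against 0.0702 in control, and all lay below every control array. That SD equals 1 step of the table's last decimal at this level. The difference of -0.397 millionths (SE 0.041) was -7.91 within-group SDs, the largest in size of the 16 probe sets on that scale, a size that rests in part on that rounded SD, and its adjusted p was 0.584 by limma. RA5 also kept its direction with each array left out, between -0.43 and -0.36 millionths. It was positive, at 122 millionths, after median centring, and had no difference after quantile normalization.

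The brightest probe set of RA14 read 0.292, 0.132 and -0.538 millionths with additional NH4Cl, against -0.00833, 0.132 and -0.00833 in control. Additional NH4Cl replicate 3 was the lowest array, and the other additional NH4Cl arrays were at or above control. The difference was -0.0767 millionths (SE 0.258; -0.242 SDs; limma adjusted p of 0.985), and without additional NH4Cl replicate 3 it was 0.173 millionths. The other bright probe sets of RA14 had the same low array, at -9.44 and -33.4 millionths. Their differences were -4.64 millionths (-0.922 SDs) and -9.9 millionths (-0.555 SDs), and without that array they were -1.08 and 4.3 millionths. Without additional NH4Cl replicate 1 they were -7.13 and -19.0, and without control replicate 3 the first was -2.94. The dim probe set had a higher mean with additional NH4Cl, by 25.8 millionths (1.32 SDs), with overlapping groups, and control replicate 1 was its lowest array at -40.8. Without that array the difference was 11.9 millionths, and without control replicate 2 it was 38.4.

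RA17 had the widest spread of the group. It read 136, -8.46 and -354 millionths with additional NH4Cl, against 52.1, 45.0 and 129 in control. The additional NH4Cl arrays held both the highest and the lowest value, the lowest again in replicate 3. The difference was -150.8 millionths (SE 148; -0.833 SDs; limma adjusted p of 0.816), and it was -11.5 without additional NH4Cl replicate 3 and -257 without replicate 1. The dim probe set of RA17 read 7.08, -7.64 and -10.8 millionths with additional NH4Cl, against 0.368, -2.91 and 13.9 in control, again with replicate 3 of additional NH4Cl lowest. Its difference of -7.54 millionths was -2.5 without control replicate 3 and -13.0 without additional NH4Cl replicate 1. In all, additional NH4Cl replicate 3 was the lowest array for 7 of the 16 probe sets. Median centring left the bright probe set of RA17 lower, at -28.2 millionths, and made RA14 higher by 122.

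Across the 10 genes by their brightest probe sets, 4 had non-overlapping groups with additional NH4Cl higher and 1 with additional NH4Cl lower. Of all rice probe sets, 8.42% were apart in the higher direction and 8.99% in the lower one, 17.4% together. Among the 100 probe sets of highest mean, 16.0% were apart upward and 14.0% downward, 30.0% together. Those 100 include the brightest probe sets of these genes except GLUD-1 and GLUB-4. The genes are few, and several of their probe sets can bind each other's transcripts, so the 5 are not separate counts, and no test of the count was made. No member passed the limma test at an adjusted p under 0.05, where 0.00699% of all rice probe sets did. That test draws the variance of each probe set toward one estimated over all rice probe sets. For the steadiest members its result therefore does not follow from the printed SE. RA5, with a difference of -0.397 millionths and an SE of 0.041, had a limma t of -1.99. GLUB-5, at 0.413 with an SE of 0.0788, had a limma t of 1.97. Of the 16, only GLUA-3 had an unadjusted p under 0.05, which 11.1% of all rice probe sets had.

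**Figure D4:**
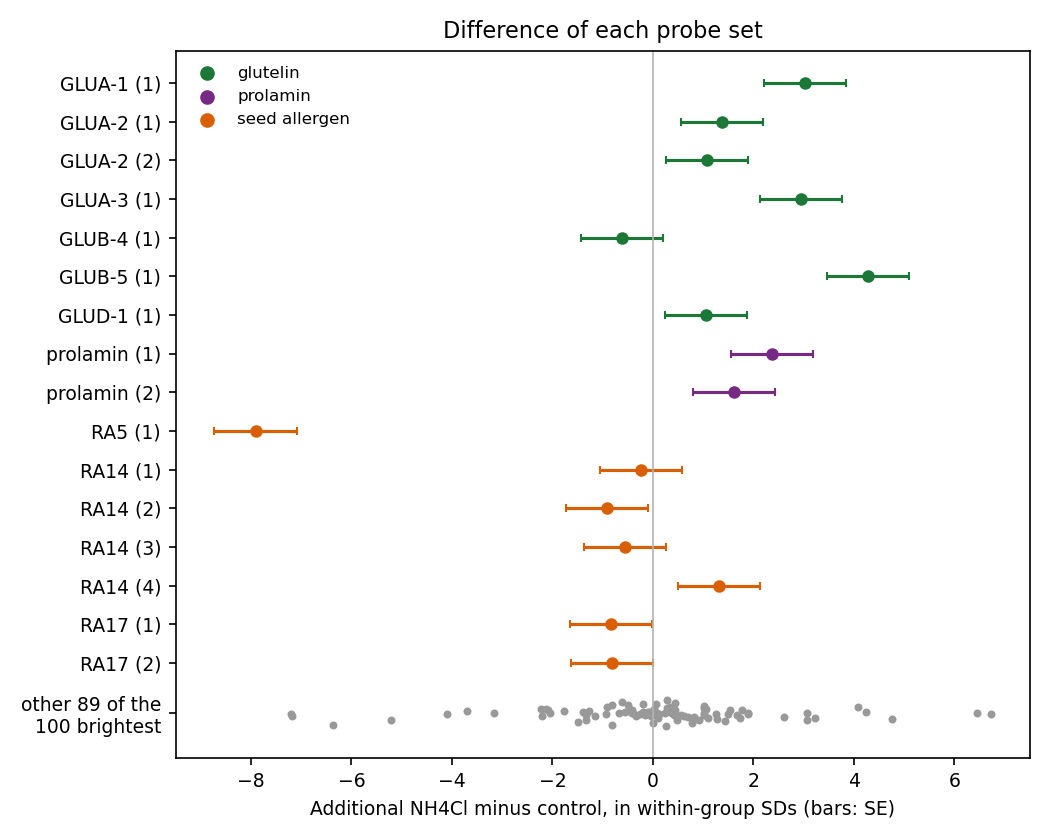
Additional NH4Cl minus control in units of the within-group SD (horizontal axis, bars are SE) for each of the 16 probe sets, numbered within a gene from the brightest, with the other 89 of the 100 brightest rice probe sets in grey. GLUB-5 at 4.28 and RA5 at -7.91 are the outermost of the coloured points, and grey points reach similar distances on both sides. The probe set shared by GLUB-4 and GLUB-5 is among the grey points, at 6.73. Those that list GLUA-1 together with another gene are grey as well, at 0.772 and 1.44.

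For RA14 and prolamin the brighter of a gene's bright probe sets varied less between arrays. The 3 bright probe sets of RA14, at 13.42, 13.08 and 12.73, had SDs over the 6 arrays of 0.286, 5.17 and 16.8 millionths. Those of prolamin, at 13.51 and 13.22, had SDs of 0.113 and 0.93 millionths. RA17 ran the other way, with an SD of 182 millionths at 12.42 and of 9.21 at 7.06. Level did not order the genes either: GLUD-1, at 11.79, had an SD of 2.21 millionths, less than the brighter RA17 probe set, and the 100 brightest probe sets ranged from 0.00816 to 198 millionths.

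The sign of the differences also depended on how the arrays were scaled. As deposited 6 of the 10 genes had a higher mean with additional NH4Cl, after median centring 9 had, and after quantile normalization none differed. Much of this is set by the scaling. Quantile normalization leaves no difference where a rank was the same on every array. Median centring adds the same amount, about 122 millionths, to the difference of every probe set. A sign turned or a difference removed in this way is not evidence about a gene, in the gene lists below as well.

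**Figure D5:**
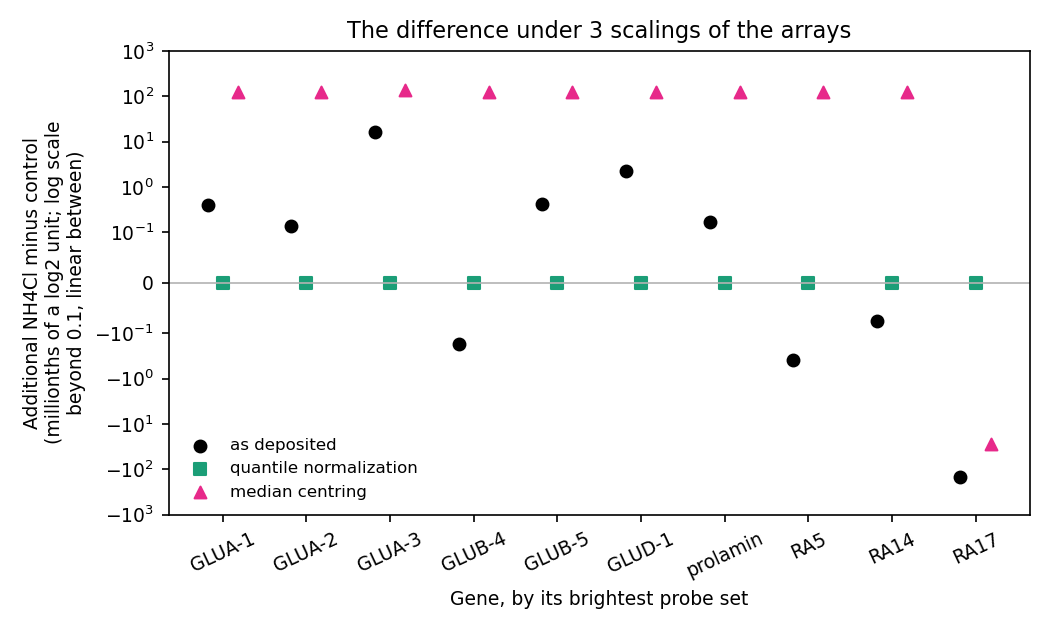
Additional NH4Cl minus control in millionths of a log2 unit, on an axis that is logarithmic beyond 0.1 and linear between, for each of the 10 genes by its brightest probe set under 3 scalings. As deposited 6 genes are above 0 and 4 below, quantile normalization puts all 10 at 0, and median centring puts all but RA17 at 122 or above.

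Other genes of the storage protein pathway were looked up by name. Among the genes for other storage proteins the names GLUB-2, RA16, GLB and RAL1 were found. GLUB-2 and RA16 had no probe set of their own, and the name RAL1 belongs to 4CL4, an enzyme of phenylpropanoid metabolism and not a storage protein, with a difference of -327 millionths (-5.22 SDs; limma adjusted p of 0.164). The gene GLB was matched by name alone, and whether it encodes a seed globulin was not checked. It stood at 7.28 with a difference of 55.5 millionths (0.594 SDs; limma adjusted p of 0.891).

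The search for regulators of seed storage genes did not find RISBZ1, RPBF, NAC20 or NAC26 by name. All 5 regulators that were found were measured, and 0 passed the limma test. Their means were higher with additional NH4Cl for 2 and lower for 3 as deposited, and higher for all 5 after median centring. NFYB1, an endosperm subunit of nuclear factor Y, stood at 10.78 with a difference of 2.92 millionths (0.848 SDs). RISBZ5, a bZIP factor of the family that includes activators of glutelin promoters, stood at 8.76, and its groups were apart with a difference of 2517 millionths (SE 634; 3.24 SDs; limma adjusted p of 0.275), higher after quantile normalization as well, at 1080. VP1, a B3-domain regulator of seed maturation, differed by -33.0 millionths (-1.51 SDs), and MADS29, a MADS-box factor of the developing seed, by -79.4 millionths (-1.45 SDs).

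For folding, sorting and processing of storage proteins 21 genes were found and 18 measured, of which 9 had a higher and 9 a lower mean as deposited, and 0 passed the limma test. They were matched by name alone, so a name such as GPA1 may belong to a gene of another function, as RAL1 did. After median centring all 18 were higher, since the shift it adds was larger than any of their negative differences. Their median difference was -0.0973 SDs, close to the 0.0101 of all rice probe sets. The brightest were BIP1, the binding protein chaperone of the endoplasmic reticulum, at 11.98, and PDIL1-1, the disulfide isomerase needed for glutelin precursors to fold, at 11.63. Both had non-overlapping groups with additional NH4Cl higher as deposited, and no difference after quantile normalization. The deposited differences were 74.5 millionths (SE 14.3; 4.25 SDs) for BIP1 and 446.5 millionths (SE 137; 2.66 SDs) for PDIL1-1, at limma adjusted p of 0.201 and 0.346. Of the 18, 4 had groups apart upward and 2 downward, where 8.42% and 8.99% of all rice probe sets did. The other 4 of these 6 were named after their values were seen. PDIL2-3, a disulfide isomerase linked to prolamin bodies, and BIP4, another binding protein gene, were apart upward and had a higher mean under all 3 scalings, PDIL2-3 by 2812 millionths (2.25 SDs; adjusted p of 0.416) and BIP4 by 9952 millionths (2.11 SDs; adjusted p of 0.443) as deposited, neither past the limma test. VPS9A, an exchange factor for the small GTPase Rab5 in glutelin sorting, and PDIL5-4, another disulfide isomerase-like gene, were apart downward, by -59.7 millionths (-2.65 SDs; limma adjusted p of 0.348) and -10.0 millionths (-2.75 SDs; 0.334). Median centring turned them to 62.8 and 113, and quantile normalization gave 132 for VPS9A and -777 for PDIL5-4. VPE1, the vacuolar processing enzyme that cleaves glutelin precursors, had a difference of -11.1 millionths (-1.21 SDs). PDIL2-1, another disulfide isomerase-like gene, differed by -11.4 millionths (-0.674 SDs). VPE1, PDIL2-1, PDIL2-3 and VPS9A were measured on probe sets marked for several transcripts, as were the markers GBSS1, TIP3-1, LEA3 and RBCS described next.

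Markers of the starchy endosperm, the tissue that fills the seed, were bright in both groups: SBE1, GBSS1 and AGPS2, of starch branching, amylose and ADP-glucose synthesis, held ranks 44, 45 and 50. All 4 measured endosperm markers had a lower mean with additional NH4Cl as deposited, but only SSI, a starch synthase, after median or quantile scaling. Their differences were -0.133, -1.0 and -25.2 millionths for SBE1, GBSS1 and AGPS2 and -28910 millionths (-6.13 SDs; limma adjusted p of 0.142) for SSI. That SBE1, GBSS1 and AGPS2 were not lower after scaling follows from their unchanged ranks and from the shift that median centring adds. The 4 markers had an average level of 11.91556 to 11.91761 over the additional NH4Cl arrays and 11.92229 to 11.92482 over the control arrays. SSI carries nearly all of this gap: without it the other 3 averaged 12.600289 to 12.600292 with additional NH4Cl and 12.600297 to 12.600301 in control. Embryo and aleurone markers had a higher mean for 2 of 6 as deposited and for all 6 after median centring. The brightest were RAB21, TIP3-1, LTP-2 and LEA3, with differences of -15.1, 0.34, -22.4 and 12.0 millionths, and the list had average levels of 11.06577 to 11.06583 with additional NH4Cl and 11.0658 to 11.06583 in control. Markers of green pericarp, CAB2R, PETE and RBCS, had a higher mean for 3 of 3 as deposited and after median centring, and for 1 of 3, RBCS, after quantile normalization. Their differences were 738, 457 and 1380 millionths, and their average level was 9.67437 to 9.67564 with additional NH4Cl and 9.67375 to 9.67499 in control. None of the markers passed the limma test, and no marker of the 3 lists that was measured lay below 7.03. The part of tissue makeup in the glutelin and allergen values was not tested.

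The genes whose array pattern was most like the average pattern of the 10 genes were myb30, ELA3, NIA1, AOX1 and PP2C68, with Pearson r between 0.965 and 0.99 over the 6 arrays. They were picked for the highest r among 2479 named probe sets at or above the median level. Over 6 arrays an r this high can come from that picking alone, and the arrays are shared by every gene compared. The groups of all 5 overlapped. In each of them additional NH4Cl replicates 1 and 2 were the highest arrays, as in myb30 with 37.2 and 27.2 millionths, and additional NH4Cl replicate 3 lay below its mean, at -26.1 millionths in myb30.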

How the data were processed

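Biotinylated cRNA was hybridized to 6 Affymetrix rice genome arrays, per the labels. The values the authors deposited for 57381 probe sets, with up to 9 decimals under 10 and 8 from 10 upward, were read as log2 from their range of 4.96 to 13.51. No source used here states the summarization, the normalization or the log base. The 187 control probe sets were left out. Additional NH4Cl minus control was fitted over 57194 rice probe sets by limma 3.58.1 under R 4.3.3, with lmFit and a plain eBayes (neither trend nor robust) and without a block, two-sided, with Benjamini-Hochberg adjustment over all of them at 0.05. Printed standard errors and within-group SDs are unmoderated. The small number of arrays limits the precision.

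Gene names come from the platform annotation joined to the ASM3414082v1 gene table. Of the probe sets, 22436 had 1 gene, 95 several, and the rest are unnamed here. A leading Os in a synonym was not counted. Members and lists were chosen with earlier results of these data known. After their values were seen, 4 further list members and the 3 probe sets left out for listing several genes were described. Otherwise named were all probe sets of the 10 genes, up to 4 of the brightest measured members of each list, and the 5 genes of most similar pattern. Names for the last came from synonyms where the symbol was a locus number. The planned promoter motif search was not run.

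On simulated data with the real means and SDs over 57194 probe sets, limma recovered 63% of 100 probe sets shifted by 10 SDs and 96% of 100 shifted by 30 SDs, and made 10 false calls in that same data set. Alternatives were a replicate block, eBayes with trend and robust, quantile normalization, median centring, the linear scale, a filter on level, each array left out, and other choices of probe set.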

Additional observations from a re-analysis of the deposited data

How the results depend on the processing

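Over all rice probe sets limma called 4 as deposited, 2 with the replicate block, 2 with trend and robust, 32 among probe sets at or above the median level, 4076 after quantile normalization and 51354 after median centring; without 1 array it called between 0 and 1. The numbers are not said to pair the samples, and same-numbered samples correlated at -0.0616, 0.0449 and -0.0775 in their deviations, so the block is no paired test. It changed no call on the 16 storage and allergen probe sets (lowest adjusted p of 0.549). Of these 16, 0 passed in any of the alternatives except median centring, where 15 did, as did most rice probe sets.

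The count of genes with a higher mean, 6 of 10, was 9 after median centring and 0 after quantile normalization, where all 10 differences were 0. It lay between 6 and 7 with 1 array left out, was 7 with a gene's probe sets averaged, and 5 of 7 without cross-hybridizing probe sets. Averaging made RA14 higher only through its dim probe set, at 6.18. Without cross-hybridizing probe sets GLUA-2 and RA14 stood by their dim ones, at 6.54 and 6.18, and GLUB-4 by its only one, at 5.36. Median centring turned GLUB-4, RA5 and the brightest RA14 probe set to 122 millionths, the other bright RA14 ones to 118 and 113, and the dim RA17 one to 115. Quantile normalization turned the dim RA17 one to 217. Leaving out 1 array turned GLUB-4 (range -0.3 to 0.0303), the brightest RA14 (-0.242 to 0.173) and the last bright RA14 probe set (-19.0 to 4.3); the other 13 kept their direction. The cause was not tested. Signal over background is unknown from this table, so the dim probe sets may carry no signal of their gene.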
